A study of Homo sapiens with 8 samples.

Results

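The clade B serpins were examined in MIV-Luc cells, the luciferase-expressing form of the metastatic breast carcinoma line MCF10CA1a. The set held 10 genes, SERPINB1 to SERPINB9 and SERPINB13, of 20193 distinct gene symbols in the deposited table, and each was measured by 1 feature of the array. SERPINB3, SERPINB4 and SERPINB13 were chosen by their rise in the cells treated with interleukin-13 (IL-13), in earlier results of these data, and the other 7 genes are their paralogs. The values of those 3 genes in the comparisons that chose them are therefore given as a description, without a test. The cells carried a scrambled hairpin (shSCR) or the hairpin shIL13Rα2#2 against the IL-13 receptor IL13Rα2, called the knockdown here, both delivered by lentivirus in the same vector and kept as stably transduced cells. Each construct was studied after a mock treatment and after 16 h of exposure to IL-13 (20 ng/ml). The 4 groups were hybridized to 2 arrays each, 8 in all, named A and B here in column order. The study's methods describe them as biological replicates, without saying how the cultures were separated. A single hairpin and a single parental line were profiled.

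Serpins are protease inhibitors that present a reactive loop as bait and trap the enzyme that cleaves it. Those of clade B lack a classical signal peptide and act mostly inside the cell, where they guard against proteases released from lysosomes and granules. SERPINB3 and SERPINB4, the squamous cell carcinoma antigens, are abundant in squamous epithelium and are known as targets of IL-4 and IL-13 in airway epithelium and keratinocytes. IL-13 acts through IL13Rα1 and IL4Rα on STAT6, whereas IL13Rα2 binds the cytokine with high affinity and is regarded as a decoy receptor.

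All values are log2 expression values that the authors made with the RMA method, a background correction and joint normalization followed by a summary over the probes of each gene. A difference of 1 is thus a 2-fold change. Array medians lay between 5.02 and 5.06, and Pearson's r across features was 0.992 to 0.993 within groups and 0.988 to 0.993 between groups. The hairpin's target, IL13RA2, was at 8.07 and 8.09 in mock-treated shSCR cells, 6.52 and 6.34 in mock-treated knockdown cells, 9.36 and 9.33 in IL-13-treated shSCR cells and 8.23 and 8.15 in IL-13-treated knockdown cells. It was lower by 1.65 in the mock-treated knockdown cells (adjusted p = 0.0105 in limma) and by 1.16 in the IL-13-treated ones (adjusted p = 0.0241 in limma). The first call did not survive leaving out any of the 4 arrays in the comparison (adjusted p of up to 0.157 in limma), and the second did not survive leaving out any of the 8 (adjusted p of 0.0780 to 0.214 in limma). All 8 mammary epithelial markers exceeded the 30th percentile of the tested features on every array, and PTPRC and DCN, which define leukocytes and fibroblasts, exceeded it on 0 arrays. Of the 10 markers of leukocytes, endothelium and fibroblasts, 5 exceeded it on every array, among them PECAM1 at 7.71 to 8.82 and CD68 at 6.52 to 7.39, and the mean of this list lay between 4.81 and 5.00 in every array. In such bulk RNA, fewer cells of a type and less RNA per cell cannot be told apart.

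SERPINB3, known as an inhibitor of lysosomal cysteine cathepsins, was raised in both constructs after treatment with IL-13. Its log2 expression was 6.94 and 6.84 in mock-treated shSCR cells and 10.70 and 10.85 after IL-13, a change of 3.88 or 14.7-fold. In knockdown cells it was 7.57 and 7.78 without IL-13 and 10.93 and 10.97 with it, a change of 3.28 or 9.69-fold. Both IL-13-treated groups thus lay above both mock-treated groups, and within each treatment the knockdown arrays lay above the shSCR arrays.

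SERPINB4, whose known targets are chymotrypsin-like enzymes such as cathepsin G and chymase, showed the same order of mock-treated and IL-13-treated arrays from a dimmer start. It was at 4.97 and 4.47 in mock-treated shSCR cells and at 9.36 and 9.38 after IL-13, which is a change of 4.65 or 25.2-fold. The knockdown cells were at 5.70 and 5.75 without IL-13 and at 9.55 and 9.28 with it, a change of 3.69 or 12.9-fold. The arrays of the IL-13-treated constructs overlapped, while those of the mock-treated constructs did not. Without any one array in turn, the IL-13 change of SERPINB4 was never below 4.4 in shSCR cells and 3.56 in knockdown cells.

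SERPINB13, an inhibitor of cathepsins L and K that is found in keratinocytes, changed by less and stayed dim. Its arrays were at 3.45 and 3.37 in mock-treated shSCR cells, 4.12 and 4.01 in mock-treated knockdown cells, 4.92 and 4.48 in IL-13-treated shSCR cells and 5.85 and 5.31 in IL-13-treated knockdown cells. No 2 groups overlapped, in that ascending order. The share of all features with such separation was not determined. Nothing is thus read from the order of groups alone, here or for SERPINB3 and SERPINB4. The change with IL-13 was 1.29 or 2.44-fold in shSCR cells and 1.51 or 2.86-fold in knockdown cells. The 30th percentile of the tested features, used as a mark of dim signal, was 3.98 to 4.03, so the mock-treated shSCR arrays lay under it and the mock-treated knockdown arrays just above it. RMA values this low compress differences, and how far was not tested.

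**Figure D1:**
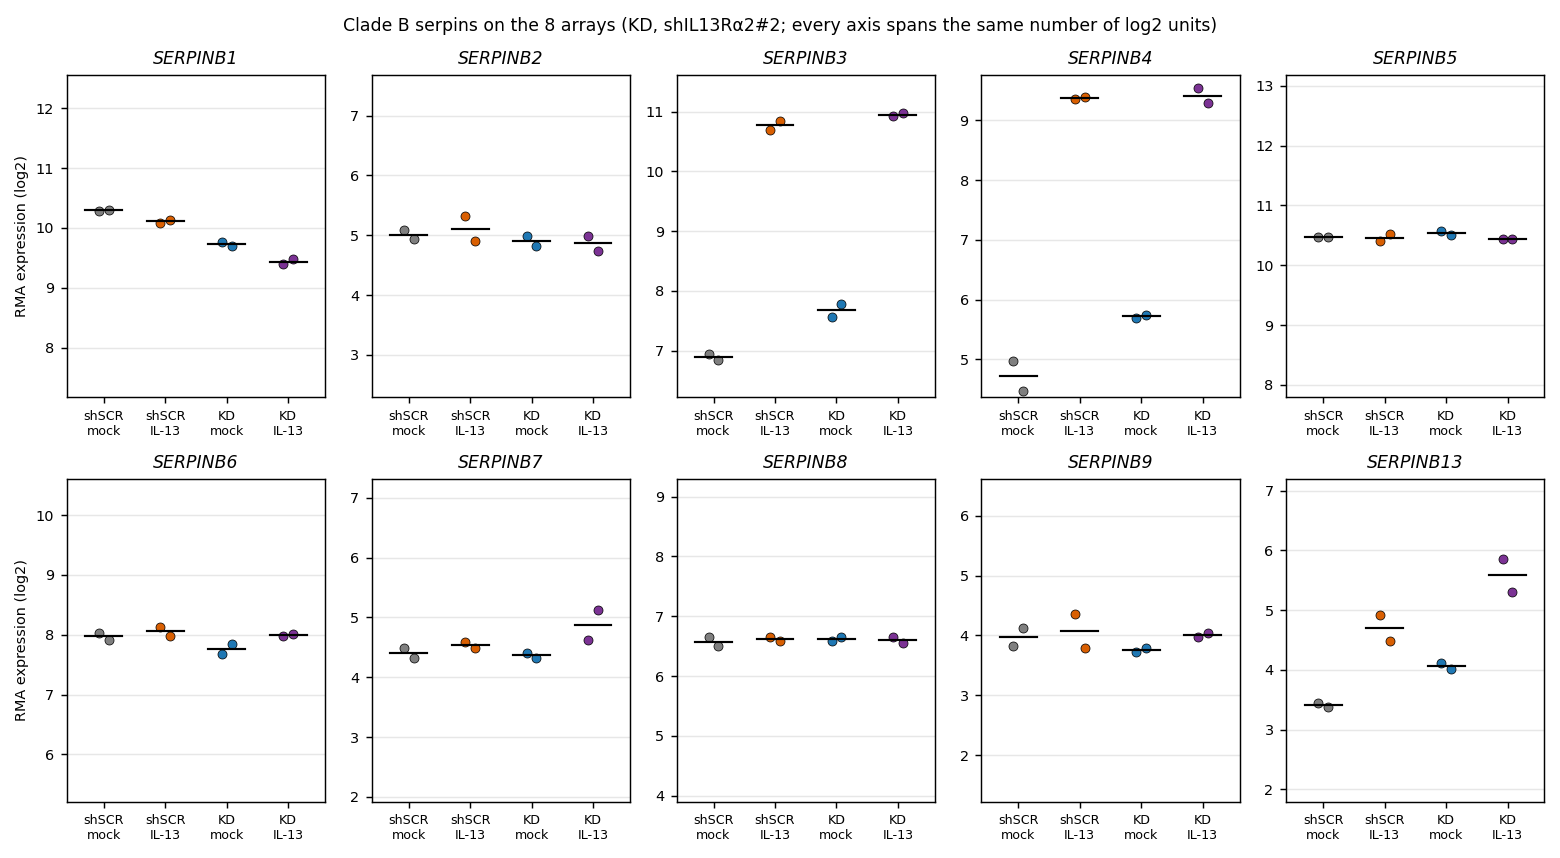
Log2 RMA expression of the 10 clade B serpins, 1 panel per gene, with a point for each array, a line for each group mean and KD for shIL13Rα2#2. SERPINB3 and SERPINB4 lie above 9 on all IL-13-treated arrays and below 8 on all mock-treated arrays, SERPINB13 is lowest in mock-treated shSCR and highest in IL-13-treated KD cells, and SERPINB1 descends from left to right.

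The paralogs did not pass the test for IL-13. Across all features, limma with Benjamini-Hochberg adjustment called 0.0583% changed by IL-13 in shSCR cells and 0.0618% in knockdown cells, at an adjusted p under 0.05 and a fold change above 2. Of the 10 members 2 were called in each, SERPINB3 and SERPINB4, and nothing is read from that count because these genes were selected on this change. Of the 7 paralogs 0 were called in either comparison in limma, and 0 in shSCR cells and 2 in knockdown cells (SERPINB1 and SERPINB7) had an unadjusted p under 0.05. In the same order, 1980 and 2020 of all 29141 features had such a p. The methods' analysis of variance, run on the 4 arrays of each comparison with the same fold threshold, called 0 of the 7. All 7 changed by less than 2-fold, so at that threshold neither test could call them and the counts of 0 add nothing. The lowest adjusted p of the 7 was 0.795 in shSCR cells and 0.626 in knockdown cells in limma. Their changes ranged from -0.18 to 0.13 in shSCR cells, with a median of 0.08 beside 0.0019 over all features, and from -0.29 to 0.51 in knockdown cells, with a median of -0.02 beside 0.02. The 95% intervals of the 7 reached from -0.42 to 0.55 in shSCR cells and from -0.53 to 0.90 in knockdown cells, so a 2-fold change of any of them lay outside its interval with all 8 arrays in the fit.

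SERPINB5, or maspin, a mammary serpin without known inhibitory activity, lay between 10.41 and 10.57 on all 8 arrays. SERPINB8, an inhibitor of furin, lay between 6.50 and 6.66. SERPINB6, a broad inhibitor of trypsin-like and chymotrypsin-like proteases, lay between 7.67 and 8.14, and SERPINB2, or plasminogen activator inhibitor 2, between 4.74 and 5.32. For these 4 genes the arrays of most neighbouring groups overlapped, and the changes in the 5 comparisons of groups lay between -0.24 and 0.24.

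SERPINB7, or megsin, a serpin of the epidermis, was at 4.62 and 5.13 in IL-13-treated knockdown cells, above its other 6 arrays, which lay between 4.32 and 4.59. Array B of that group stood apart from array A. The change with IL-13 in knockdown cells was 0.51 (95% interval 0.11 to 0.90), with an adjusted p of 0.626 in limma. Without array A of that group it was 0.77 and without array B 0.25, and it was not called in either fit. SERPINB9, the granzyme B inhibitor of lymphocytes and their targets, lay between 3.73 and 4.36 and exceeded the mark of dim signal on 3 of 8 arrays.

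**Figure D2:**
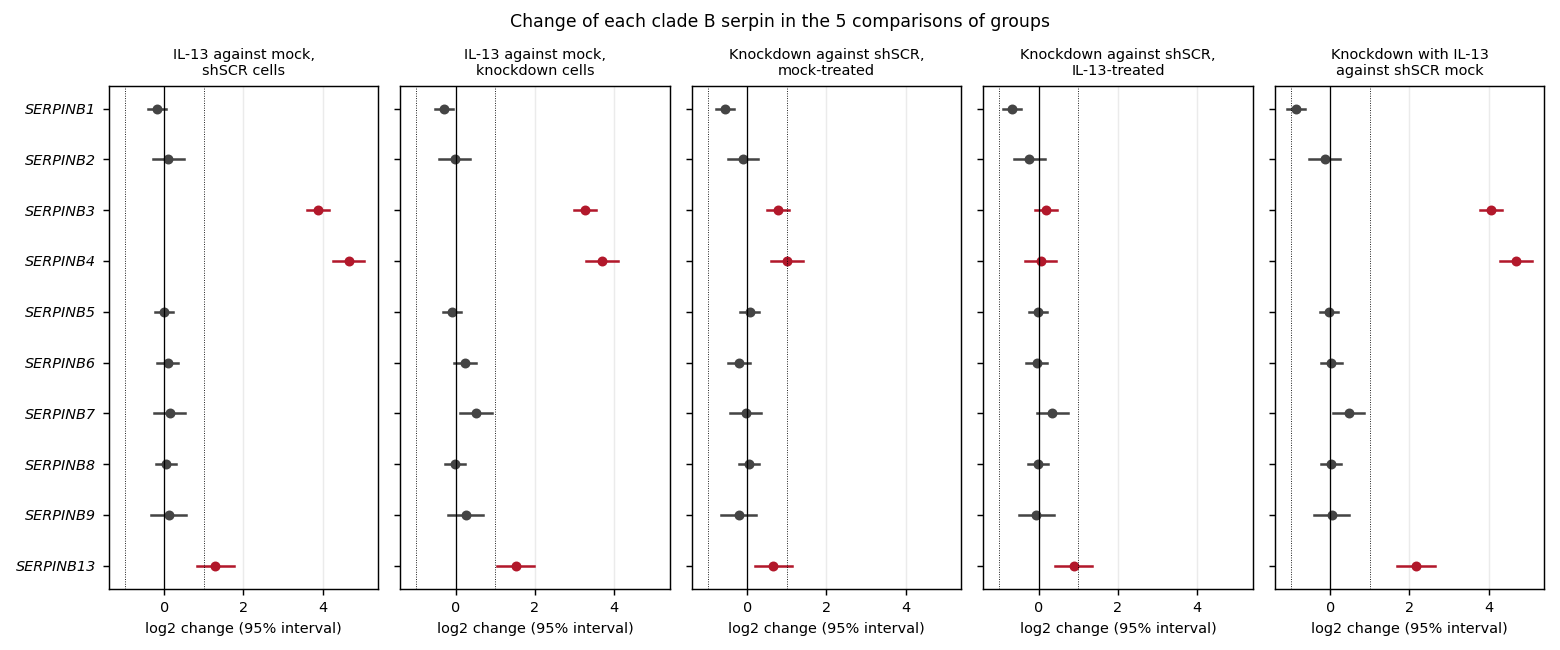
Log2 change of each of the 10 serpins with its 95% interval from limma in the 5 comparisons of groups, with dotted lines at a 2-fold change and the 3 chosen genes in red, for which the intervals of the IL-13 and combined comparisons are a description. The 7 paralogs in grey lie between -0.86 and 0.51 in all 5 panels.

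Without added IL-13, the knockdown cells had more SERPINB3, SERPINB4 and SERPINB13 signal than the shSCR cells on both arrays. SERPINB5 also lay higher on both knockdown arrays, and SERPINB1, SERPINB6 and SERPINB9 lay lower without overlap. The share of all features without overlap was not determined, so nothing is read from it alone. None of these differences passed the test. The mock-treated arrays also served to choose SERPINB3, SERPINB4 and SERPINB13 by their rise with IL-13. The intervals and p-values of these genes here are thus not independent of that choice. SERPINB3 differed by 0.78 (standard error 0.12, 95% interval 0.50 to 1.06, adjusted p = 0.114 in limma). SERPINB4 differed by 1.01, a 2.01-fold change (standard error 0.17, 95% interval 0.60 to 1.41, adjusted p = 0.159 in limma). SERPINB13 differed by 0.65 (standard error 0.20, 95% interval 0.18 to 1.12, adjusted p = 0.406 in limma). Over all features 0.0652% were called, and of the 10 members 0. An unadjusted p under 0.05 was found for 4 members and for 2771 of all 29141 features. These members were SERPINB1 and the chosen SERPINB3, SERPINB4 and SERPINB13. The call of SERPINB4 depended on the variance model, since its adjusted p was 0.0121 in limma when the variance prior was robust and followed the intensity.

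After IL-13 the constructs were closer for the first pair of genes. The IL-13-treated arrays also served to choose SERPINB3, SERPINB4 and SERPINB13, so their intervals and p-values are not independent of that choice. The knockdown differed from shSCR by 0.18 for SERPINB3 (95% interval -0.10 to 0.46, adjusted p = 0.831 in limma) and by 0.04 for SERPINB4 (95% interval -0.36 to 0.45, adjusted p = 0.983 in limma). For SERPINB13 the difference was 0.88 (95% interval 0.41 to 1.35, adjusted p = 0.349 in limma), with both knockdown arrays above both shSCR arrays. How many of all features share that order was not determined. Here 0.0515% of all features were called, and 0 of the 10 members. An unadjusted p under 0.05 was found for 2 members and for 2061 of all 29141 features.

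The difference between the IL-13 changes of the constructs was tested as an interaction, on the same arrays that served to choose the 3 genes. IL-13 changed SERPINB3 by 0.60 less in knockdown than in shSCR cells (interaction of -0.60, standard error 0.17, adjusted p = 0.989 in limma) and SERPINB4 by 0.96 less (interaction of -0.96, standard error 0.25, adjusted p = 0.989 in limma). For SERPINB13 the interaction was 0.23 (95% interval -0.44 to 0.89, adjusted p = 0.997 in limma). Among all features 0% passed the interaction test in limma, and 1304 of 29141 had an unadjusted p under 0.05, with SERPINB3 and SERPINB4 the 2 members among them. A difference between the constructs in the IL-13 change was thus not established for any member.

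**Figure D3:**
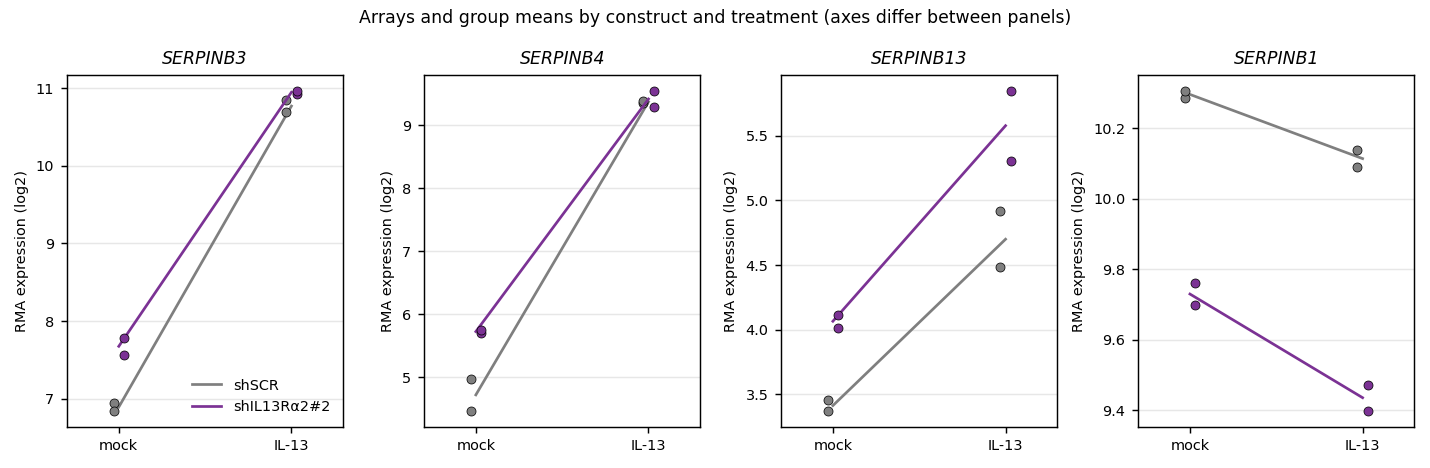
Log2 RMA expression of SERPINB3, SERPINB4, SERPINB13 and SERPINB1 by treatment, with a point for each array and lines through the group means of each construct. The lines of SERPINB3 and SERPINB4 start 0.78 and 1.01 apart and nearly meet after IL-13, whereas those of SERPINB13 and SERPINB1 stay apart.

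SERPINB1, the inhibitor of neutrophil elastase, cathepsin G and proteinase 3, lay lower on the knockdown arrays than on the shSCR arrays with both treatments. The share of all features with that order was not determined, so nothing is read from the order alone. Its arrays were at 10.29 and 10.31 in mock-treated shSCR cells, 10.09 and 10.14 in IL-13-treated shSCR cells, 9.76 and 9.70 in mock-treated knockdown cells and 9.40 and 9.47 in IL-13-treated knockdown cells. No 2 groups overlapped. The knockdown differed from shSCR by -0.57 without IL-13 (adjusted p = 0.169 in limma) and by -0.68 with it (adjusted p = 0.128 in limma), and neither passed the test. The change with IL-13 was -0.18 in shSCR cells (adjusted p = 0.795 in limma) and -0.29 in knockdown cells (adjusted p = 0.635 in limma).

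Compared with mock-treated shSCR cells, the IL-13-treated knockdown cells had 0.86 less SERPINB1, in which the 95% interval ran from -1.09 to -0.63 (standard error 0.10, adjusted p = 0.0235 in limma). This 1.82-fold difference passed the adjusted p and not the fold threshold, and leaving out any of the 8 arrays took the adjusted p to between 0.0555 and 0.176 in limma. In this comparison 0.154% of all features were called and 0.285% passed the adjusted p with any fold. SERPINB1 was the 1 of the 7 paralogs that passed the adjusted p, and 0 were called. Averaged over both treatments, a comparison added after the values had been seen, the knockdown differed by -0.62 for SERPINB1 (standard error 0.07, adjusted p = 0.0176 in limma), and leaving out any one array raised the adjusted p to between 0.0752 and 0.102. That average called 0.0755% of all features, and 0.446% passed the adjusted p with any fold. In the gene lists used here, IL13RA2 (-1.40), CTSL2 (-0.80), SERPINA1 (-0.98) and TP63 (0.94) also passed the adjusted p in that average. Their adjusted p in limma were 0.00105, 0.0159, 0.0191 and 0.0225. So did KRT18, a luminal keratin among the epithelial markers, at -0.60 (adjusted p = 0.0454 in limma). This was the feature of smaller p of the pair on the array, and its group means were 9.46 and 9.37 in mock-treated and IL-13-treated shSCR cells and 8.82 and 8.81 in the knockdown cells. Leaving out any one array took that adjusted p to between 0.0879 and 0.184, and the part of this marker in the SERPINB1 result was not tested. The average was 0.48 for SERPINB3 (adjusted p = 0.0790 in limma), 0.52 for SERPINB4 (adjusted p = 0.170 in limma) and 0.77 for SERPINB13 (adjusted p = 0.0942 in limma). It uses the arrays that served to choose these genes, so their p-values are not independent of that choice. Of the 10 members 0 were called.

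The same combined comparison shares its arrays with those above and gave 4.06 for SERPINB3, 4.70 for SERPINB4 and 2.17 for SERPINB13, or 16.7-fold, 26.0-fold and 4.49-fold. These 3 were the members called, upward, and the count again repeats their choice. With 1 array left out at a time, the change of SERPINB13 lay between 1.89 and 2.44.

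In the RefSeq annotation of GRCh38.p14, 7 of the members lie on chromosome 18 and 3, SERPINB1, SERPINB9 and SERPINB6, on chromosome 6. SERPINB13, SERPINB4 and SERPINB3 are immediate neighbours among the protein-coding genes of chromosome 18, between SERPINB12 and SERPINB11. SERPINB10, SERPINB11 and SERPINB12, which complete the clade and were not among the members, lay between 2.48 and 3.49, under the mark of dim signal on all 8 arrays. Their changes with IL-13 were 0.19, 0.06 and -0.19 in shSCR cells and 0.21, -0.11 and -0.06 in knockdown cells, with adjusted p of at least 0.813 in limma. A change at such dim signal may not be detectable on these arrays. The measured genes farther along the cluster, SERPINB5, SERPINB7, SERPINB2 and SERPINB8, were those described above with changes of -0.10 to 0.51.

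**Figure D4:**
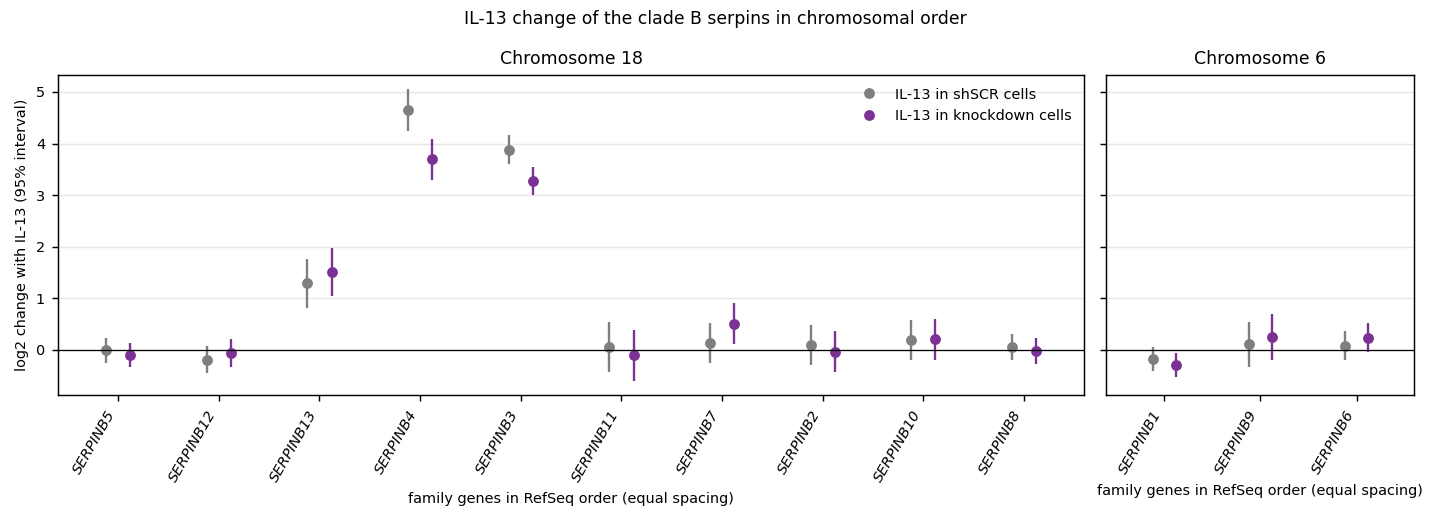
Log2 change with IL-13 and its 95% interval in shSCR and knockdown cells for the clade B genes in RefSeq order, equally spaced, on chromosomes 18 and 6. The changes above 1 belong to the adjacent genes SERPINB13, SERPINB4 and SERPINB3, and the flanking SERPINB12 and SERPINB11 lie near 0.

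The promoters of SERPINB3 and SERPINB4 are shown because both genes moved together and their start regions are nearly the same, and that of SERPINB13 because it is their neighbour. The RefSeq windows of GRCh38.p14 hold the 250 bases before each start site, at chr18:63661894-63662143 (minus strand) for SERPINB3, chr18:63644257-63644506 (minus strand) for SERPINB4 and chr18:63587093-63587342 (plus strand) for SERPINB13. Capitals mark the bases that differ between the first pair and, in SERPINB13, a match to TGANTCA, the core bound by AP-1 factors:
SERPINB3: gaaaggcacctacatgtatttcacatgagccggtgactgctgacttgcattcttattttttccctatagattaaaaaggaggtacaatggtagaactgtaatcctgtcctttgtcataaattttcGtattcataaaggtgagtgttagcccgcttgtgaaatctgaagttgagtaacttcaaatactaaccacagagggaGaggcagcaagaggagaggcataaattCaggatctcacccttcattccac
SERPINB4: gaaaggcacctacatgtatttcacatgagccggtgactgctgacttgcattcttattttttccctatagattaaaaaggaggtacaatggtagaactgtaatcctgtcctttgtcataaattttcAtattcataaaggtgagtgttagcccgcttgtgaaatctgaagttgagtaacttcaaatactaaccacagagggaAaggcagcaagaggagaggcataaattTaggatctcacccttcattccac
SERPINB13: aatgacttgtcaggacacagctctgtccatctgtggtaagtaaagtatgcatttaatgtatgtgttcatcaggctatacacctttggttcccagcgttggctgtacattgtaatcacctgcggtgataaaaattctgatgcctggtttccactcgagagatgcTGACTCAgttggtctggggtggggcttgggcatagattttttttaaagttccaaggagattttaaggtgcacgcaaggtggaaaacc
The first pair was identical at 98.8% of the 250 positions. It differed by G126A, G201A and C228T, with the base of SERPINB3 first and positions counted from 1 at the 5′ end. The same ungapped count between SERPINB3 and SERPINB13 was 24%. These windows lie before the start sites, so their identity does not measure that of the transcripts or probes, which were not compared. Probes that match closely related genes can bind RNA of either. The deposited table marked 0 of the members for cross-hybridization, a mark it gave to 4 features in all. How much of the SERPINB4 signal came from SERPINB3 was not tested.

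Motifs were searched in these windows on both strands, each reading the same on either strand. TTC and GAA separated by 4 bases, the spacing preferred by STAT6, occurred in 0 of the 10 members and, in at least 1 of a gene's windows, in 6.55% of all 27305 genes. With 3 bases between, it occurred in a window of SERPINB1, SERPINB7 and SERPINB8 and in 8.09% of all genes. TGANTCA occurred in a window of SERPINB2, SERPINB5, SERPINB7, SERPINB8 and SERPINB13 and in 8.06% of all genes. In SERPINB13 it began 87 bases before the start site. Of all single windows, 5.38%, 6.57% and 6.57% held these motifs, in that order. SERPINB6 and SERPINB7 had several windows, all of which were searched. Of the genes chosen by their rise with IL-13, SERPINB3 and SERPINB4 had no match to any of these letters in their windows, and SERPINB13 held TGANTCA. Whether a motif goes with the IL-13 change was not tested.

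Among 140 features with 1 gene symbol whose group means spanned at least 1 on the log2 scale, the profile of SERPINB3 over the 8 arrays was most like that of SERPINB4 (Pearson's r of 0.997), then SLIT2 (0.995) and PLXDC2 (0.993). SLIT2, a secreted guidance ligand of ROBO receptors, was at 7.34 and 7.30 in mock-treated shSCR cells and at 8.42 and 8.51 after IL-13. For SERPINB4 the other closest genes were PLXDC2 (0.996) and DPYD (0.991), the first enzyme of pyrimidine breakdown. SERPINB13 was closest to the sulfate transporter gene SLC26A2 (0.946), THBS1 (0.941), which encodes the matrix protein thrombospondin, and PLXDC2 (0.928), ahead of SERPINB4 (0.897) and SERPINB3 (0.895). SLC26A2 was at 5.53 and 5.66 in mock-treated shSCR cells, 6.45 and 6.37 in mock-treated knockdown cells, 6.65 and 6.83 in IL-13-treated shSCR cells and 7.33 and 7.31 in IL-13-treated knockdown cells, the group order of SERPINB13. These values of r describe 8 arrays that fall into 4 groups and share their treatment and construct.

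SERPINB1 was added to this search after its values had been seen. It was most like NT5E (0.997), which encodes the ecto-nucleotidase CD73, CTSL2 (0.978), the older symbol of the cathepsin V gene CTSV, and INHBA (0.968), which encodes an activin subunit. NT5E was at 9.67 and 9.72 in mock-treated shSCR cells, 9.37 and 9.34 in IL-13-treated shSCR cells, 8.84 and 8.79 in mock-treated knockdown cells and 8.31 and 8.36 in IL-13-treated knockdown cells. Its groups stood in the order of those of SERPINB1, again without overlap. Between SERPINB1 and SERPINB13, r over the 8 arrays was -0.755.

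**Figure D5:**
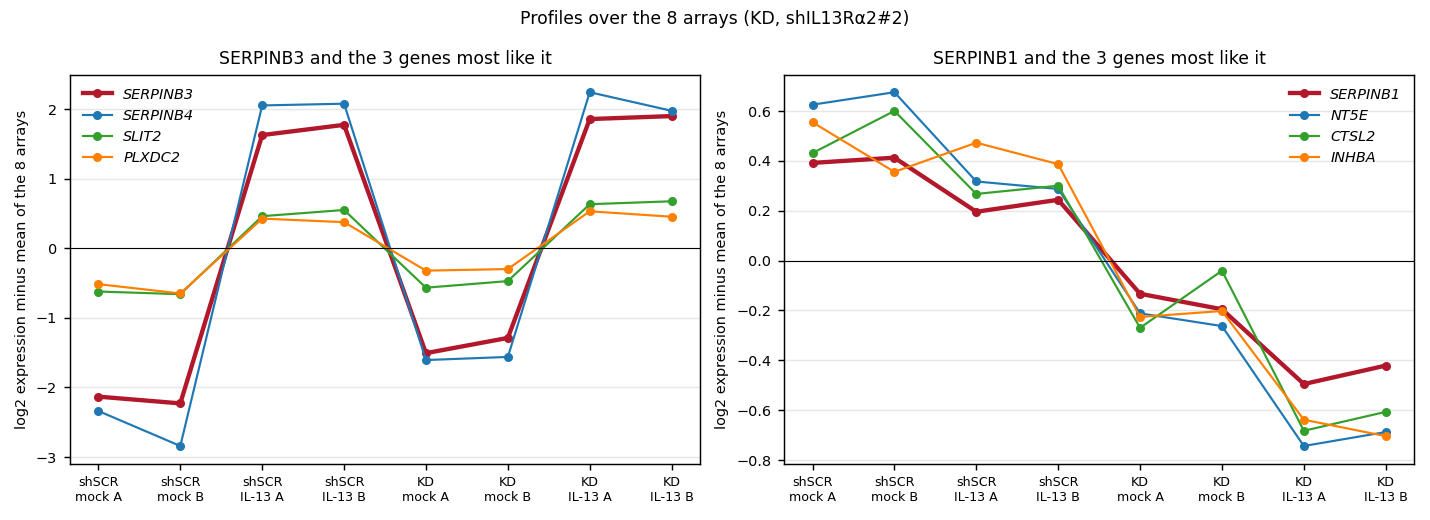
Log2 expression minus the mean of the 8 arrays, for SERPINB3 and for SERPINB1, each with the 3 genes most like it. SERPINB3 and SERPINB4 span about 4 and more log2 units between mock-treated and IL-13-treated arrays, SLIT2 and PLXDC2 less, and SERPINB1 descends with NT5E, CTSL2 and INHBA from mock-treated shSCR to IL-13-treated knockdown arrays.

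The proteases that clade B serpins inhibit were described as a list of 12 genes, all of them on the array. In the combined comparison 1 of the 12, CTSL2, was called and fell by 1.16 on the log2 scale (standard error 0.12, adjusted p = 0.0152 in limma), and 0 rose. The median of the list was -0.05 beside 0.01 over all features. Cathepsin V is a lysosomal cysteine protease closely related to cathepsin L. CTSL2 was at 9.68 and 9.85 in mock-treated shSCR cells, 9.52 and 9.55 in IL-13-treated shSCR cells, 8.98 and 9.21 in mock-treated knockdown cells and 8.57 and 8.65 in IL-13-treated knockdown cells. Leaving out any of the 4 arrays in the comparison ended the call (adjusted p of up to 0.125 in limma). In the 5 other comparisons that had been fixed, 0 of the 12 proteases were called.

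Of 19 serpins of other clades, all on the array, 1 was called in the combined comparison. SERPINA1, or alpha-1-antitrypsin, the main plasma inhibitor of neutrophil elastase, fell by 1.21 on the log2 scale (standard error 0.16, adjusted p = 0.0357 in limma). It was at 6.86 and 6.35 in mock-treated shSCR cells and at 5.33 and 5.46 in IL-13-treated knockdown cells, so array A of the first group stood higher than array B. Without that array the difference was -0.96 (adjusted p = 0.147 in limma), and the gene was called in 1 of the 8 fits that left out an array. The median of these serpins was -0.0053 beside 0.0062 over all features.

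In the IL-13 receptor and STAT6 chain, 1 of 11 genes was called, IL13RA2 itself, which rose with IL-13 by 1.27 in shSCR cells (adjusted p = 0.0135 in limma) and by 1.76 in knockdown cells (adjusted p = 0.00264 in limma). The rise in shSCR cells lost its call when any of the 4 arrays in that comparison was left out (adjusted p of up to 0.160 in limma). The 10 other genes of the chain exceeded the mark of dim signal on all arrays, with STAT6 at 6.66 to 7.07, and 0 of them passed the adjusted p in any comparison.

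Squamous differentiation genes, a programme in which SERPINB3, SERPINB4, SERPINB7 and SERPINB13 are known to take part, were described as a list of 18, all on the array. With IL-13 0 of the 18 were called in either construct, and the medians were -0.16 in shSCR and -0.10 in knockdown cells beside 0.0019 and 0.02 over all features. TP63, the transcription factor of basal and squamous epithelium, changed with IL-13 by 1.09 in shSCR cells (adjusted p = 0.138 in limma). In knockdown cells it changed by 0.59 (adjusted p = 0.522 in limma). Its call in shSCR cells depended on the variance model, with an adjusted p of 0.0125 in limma under the trended and robust prior. In the combined comparison TP63 rose by 1.78 (adjusted p = 0.00969 in limma) from 5.06 and 4.87 to 6.98 and 6.50. The call ended when either mock-treated shSCR array, or array A of the IL-13-treated knockdown cells, was left out (adjusted p of up to 0.0947 in limma). SPRR1B, a precursor of the cornified envelope, was lower by 0.96 there (adjusted p = 0.0467 in limma), which passed the adjusted p and not the fold threshold. Its change with IL-13 was -0.99 in shSCR cells (adjusted p = 0.109 in limma) and -0.49 in knockdown cells (adjusted p = 0.514 in limma).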

How the data were processed

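Total RNA of 8 cell samples was amplified, biotin-labelled and hybridized to Affymetrix GeneChip arrays. The authors deposited log2 expression values, which they made with RMA on core exons in Affymetrix Expression Console version 1, in a table of 33297 features. The genome build of that step is not given in the sources used here. No further normalization was applied. After removal of 4156 control features, 29141 entered the tests with no filter on signal, and 7102 of those lacked a usable symbol. Each column heading names a construct and a treatment, which gave its group.

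Group means were fitted over all 8 arrays with limma 3.58.1 in R 4.3.3, with Benjamini-Hochberg adjustment over all tested features. A gene was called at an adjusted p under 0.05 and a fold change above 2, the thresholds of the study's methods, and for the interaction at the adjusted p alone. The members and gene lists were chosen with earlier results of these data known. Named outside the family were list genes with an adjusted p under 0.05 and the 3 genes most like SERPINB3, SERPINB4 and SERPINB13. Where a list gene had several features, that with the smallest p was used. The 95th percentile of background control features (9.41 to 9.74) lay above all but 3.89% to 5.02% of tested features, so the 30th percentile of tested features marked dim signal instead. Above the former, SERPINB5 lay on 8 arrays, SERPINB1 on 6, SERPINB3 on 4 and the other 7 members on 0. Precision is limited by the number of arrays. The fit was tested on simulated data.

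Alternatives were the methods' one-way analysis of variance, limma on the 4 arrays compared or without adjustment, other fold thresholds, leaving out the dimmest 30% of features, 2 further normalizations, a trended and robust prior, and leaving out each array.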

Additional observations from a re-analysis of the deposited data

How the results depend on the processing

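No paired analysis was possible because the column headings carry no replicate numbers. Of the 10 members, the methods' analysis of variance after adjustment called 0 in each of IL-13 in shSCR cells, IL-13 in knockdown cells and the combined comparison. For IL-13 in either construct it called 0 of all features, so its counts there say nothing about the members. For the knockdown in mock-treated cells, limma without adjustment called 1 member and limma with a trended and robust prior also 1, in both cases SERPINB4. Limma without adjustment called 2 members for the interaction, SERPINB3 and SERPINB4. For the mean knockdown change, a fold threshold of 1.5 or none gave 1 member, SERPINB1. The cause was not tested. All other alternatives kept these counts within 1.5 times, and leaving out the dimmest 30% of features kept 9 of the members. With each array left out, limma called 2 members for IL-13 in either construct and 2 to 3 in the combined comparison, all of them among the genes chosen for these changes, so that nothing is read from those counts. It called 0 for the knockdown in either treatment, for the interaction and for the mean knockdown change. No change of a called gene reversed. Under the trended and robust prior the adjusted p of SERPINB1 was 0.00201 for the knockdown without IL-13 and 0.000519 with it, and that of SERPINB3 was 0.00203 without IL-13, all below a 2-fold change. Shifting the arrays to one median or normalizing them again by quantiles moved the median of all features by at most 0.013. With 2 arrays a group, the 95% intervals of the paralogs for IL-13 were up to 0.44 wide on either side.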
